A study of Mus musculus with 6 samples.

Results

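Keratinocytes that differentiate replace their plasma membrane with a cornified envelope, in which transglutaminases cross-link precursor proteins such as loricrin, involucrin, filaggrin and the small proline-rich (Sprr) proteins. Modified desmosomes hold the flattened cells together, ceramides and lipoxygenase products seal the spaces between them, and transcription factors such as p63, Grhl3 and Ovol1 switch these genes on or off. The colon is lined by a simple columnar epithelium, which meets stratified squamous epithelium at the anus.

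The genes described here are 42 cornified envelope and squamous differentiation genes, chosen by name with earlier results of these data known. Of these, 38 had a probe set of their own among the 18193 genes that the array represents in that way. Where a gene had several probe sets, as 14 of the 38 did, the brightest on average over the 6 arrays stands for it, and the others are given beside it where they differ. Sprr2a1 and Gsdmc were covered only by probe sets shared with related genes, and no probe set was assigned to Flg2 or Dsg3. The arrays measured total RNA from the colon of 3 control mice, labelled wild type, and 3 HDAC1/2 deficient mice, in which floxed Hdac1 and Hdac2 were deleted by a Cre recombinase under the villin promoter. Villin-Cre acts in the intestinal epithelium, so other cells of the colon kept both genes. The mice were 4 months old by the study's text and received no treatment, and the labels number 1 mouse per array and call the source epithelium, whereas the extraction protocol names the colon. Values are log2 expression values (robust multi-array average, RMA) on a scale that ran from 2.79 to 14.85, so that a difference of 1 is a 2-fold change, and differences are deficient minus control.

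Over all probe sets, arrays correlated at 0.9984 to 0.9988 within a group and at 0.982 to 0.983 between groups. Hdac1, a deleted gene, was at 10.60, 10.53 and 10.56 on the control arrays and at 9.27, 9.21 and 9.32 on the deficient arrays (log2 fold change -1.30, limma adjusted p = 1.06e-06). None of the 3 Hdac2 probe sets passed the test, with differences from -0.07 to 0.05, and their position relative to the deleted exons was not examined. By immunofluorescence the paper found HDAC2 to be patchy in mutants, with most epithelial cells negative and some crypts and villi still positive. The paper's Western blot of enriched epithelial cells showed both proteins depleted. Xist, a transcript of female cells, was at 12.88, 12.85 and 12.81 in control and at 12.01, 11.99 and 12.06 in deficient colon, and the Y-linked Eif2s3y was at 3.84, 4.31 and 4.11 and at 8.32, 8.49 and 8.22. Each deficient array thus carried clear signal of both a female and a male transcript, which a single mouse would not usually show, and whether RNA was pooled is not known. If it was, the spread between arrays is not that between single mice. Sex-linked RNA also moved with the genotype, and its part in the results was not tested. Markers of the simple epithelium stayed bright. The log2 of the summed signal of 14 colonocyte markers was 17.47 to 17.48 on control and 17.57 to 17.59 on deficient arrays. Of these markers 6 rose (42.9%) and 4 fell (28.6%), against 21.9% and 28.4% of all genes. Krt8, Lgals4, Krt19 and Epcam averaged 14.31 to 14.70 in control, close to the top of the scale, so the sum may respond little to a loss. Krt20 (0.67), Car1 (0.57), Cdx2 (0.56) and Vil1 (0.35) changed the most, and the 4 that fell were Slc26a3 (-0.34), Gpa33 (-0.29), Cdx1 (-0.22) and Epcam (-0.16).

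Squamous genes moved in both directions in HDAC1/2 deficient colon, and their largest changes were mostly decreases. Of the 38 genes, 17 (44.7%) fell, 8 (21.1%) rose and 13 did not pass (limma, adjusted p under 0.05 over all probe sets). Among all 18193 genes 28.4% fell and 21.9% rose, so the share that rose was near the background. More than 2-fold, 10 of the 38 fell (26.3%) and 3 rose (7.89%), against 1.82% and 2.25% of all genes. The deficient arrays lay entirely below the control arrays for 17 genes and entirely above them for 9, against 34.1% and 26.9% of all genes. The median difference was -0.15, beside -0.02 over all genes. In RNA of a whole tissue, fewer cells of a type and less RNA per cell cannot be told apart.

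**Figure D1:**
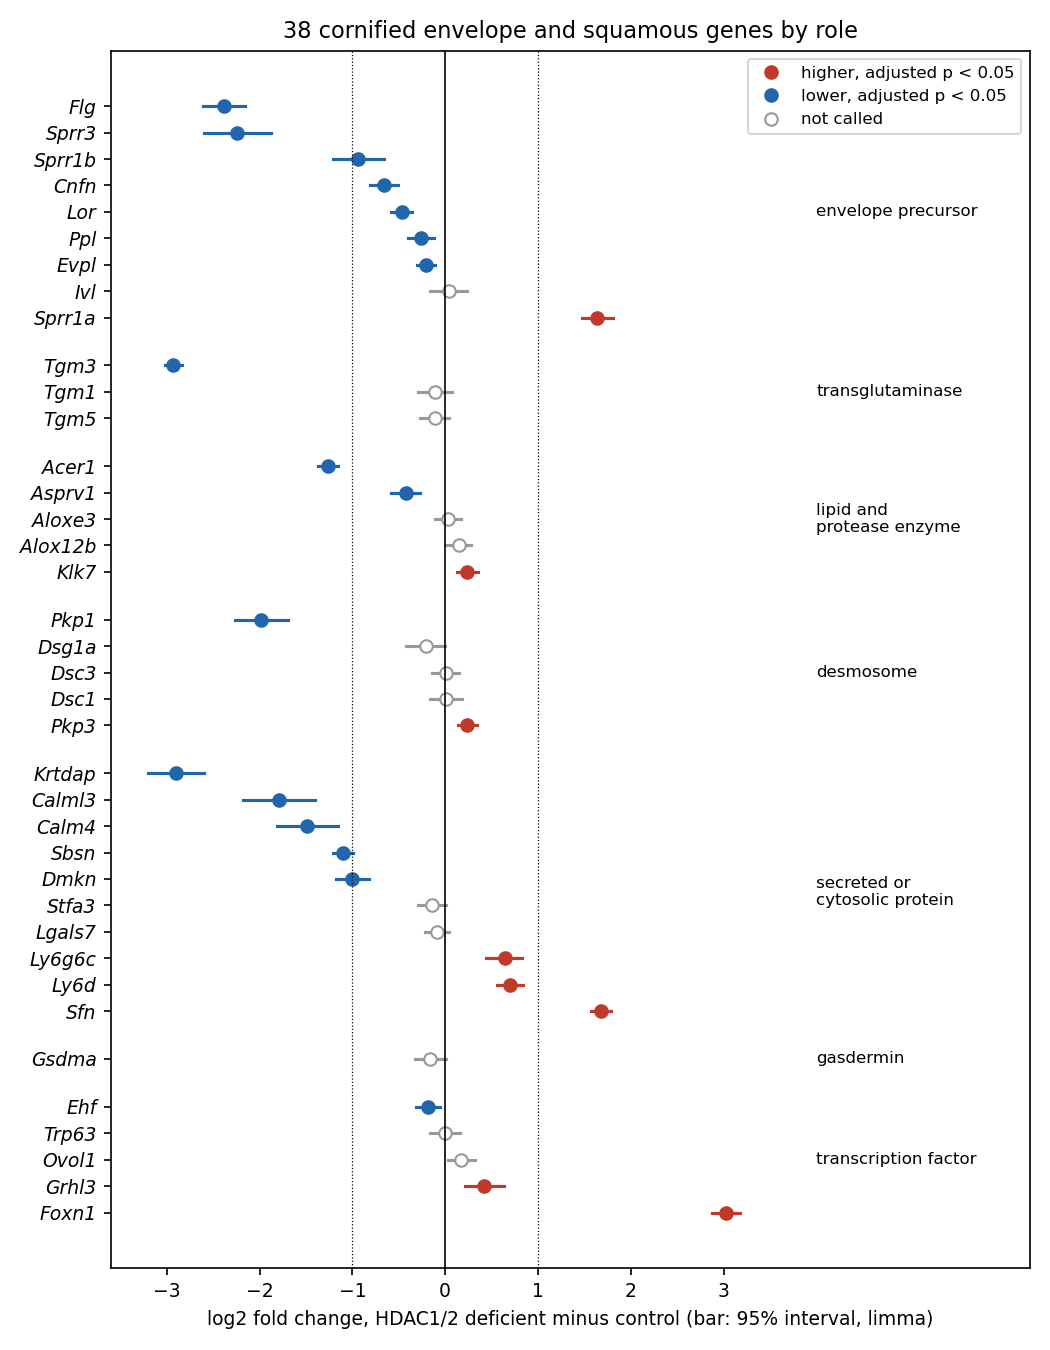
Log2 fold change (deficient minus control) of the 38 squamous genes by role, with 95% intervals from limma and dotted lines at 2-fold. The 10 largest decreases run from Tgm3 (-2.93) to Dmkn, and Foxn1 (3.03), Sfn (1.68) and Sprr1a (1.64) stand alone above 2-fold.

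Of the 3 transglutaminase genes, only Tgm3 fell (33.3%, against 28.4% of all genes), and it had the largest decrease among the 38. Tgm3, which encodes an epidermal and hair follicle transglutaminase that cross-links envelope precursors, was at 13.38, 13.35 and 13.36 on the control arrays and at 10.42, 10.43 and 10.43 on the deficient arrays. Every deficient array was lower, and arrays of a group barely differed from each other (log2 fold change -2.93, limma adjusted p = 1.14e-08, with a standard error of 0.0379). A second Tgm3 probe set fell by 2.66. The brightest Tgm3 probe set was at the 96.1st percentile of mean signal. On the control arrays the log2 of the summed signal of 15 stratified keratins was 11.93 to 12.06. Signals of different probe sets do not give the relative amounts of their RNA. Which cells of the colon held Tgm3 RNA was not tested. Tgm1, the membrane-anchored enzyme of keratinocytes (-0.11, 95% interval -0.29 to 0.07), and Tgm5 (-0.11, -0.27 to 0.04) had overlapping groups and did not pass.

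Of 9 envelope precursor genes measured, 7 fell (77.8%, against 28.4% of all genes), 1 rose (11.1%, against 21.9%) and 1 did not pass. Their median difference was -0.47. Flg encodes profilaggrin, which aggregates keratin filaments in the cornified layer. It was at 6.64, 6.26 and 6.55 in control and at 4.03, 4.12 and 4.15 in deficient colon (-2.38, standard error 0.0966, limma adjusted p = 1.86e-06). The groups did not overlap, although the Flg signal was dim, at the 22.9th percentile of mean signal. Sprr3, a small proline-rich precursor of oesophageal and other internal squamous epithelia, was at 8.12, 8.27 and 8.39 in control and at 5.65, 6.28 and 6.13 in deficient colon, again with no overlap (-2.24, standard error 0.153, limma adjusted p = 2.17e-05).

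Sprr1a went the opposite way. This small proline-rich precursor was at 8.77, 8.78 and 8.97 on the control arrays and at 10.43, 10.59 and 10.43 on the deficient arrays, every deficient array being higher (1.64, standard error 0.0727, limma adjusted p = 2.78e-06). The related Sprr1b fell by 0.94 (limma adjusted p = 4.39e-04), at a dim signal in the 9.3rd percentile. By RefSeq order Sprr1b, Sprr3 and Sprr1a are consecutive protein-coding genes, so the gene that rose lies beside 2 that fell.

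The promoters of the adjacent Sprr3 and Sprr1a are shown because these genes changed in opposite directions. The 150 bases before the RefSeq start are printed 5′ to 3′ on the gene's strand, for Sprr3 from chr3:92458721-92458870 and for Sprr1a from chr3:92485882-92486031 (GRCm38.p6, both on the minus strand). Capitals mark the TATA box letters TATAAA and the AP-1 letters TGANTCA.
Sprr3: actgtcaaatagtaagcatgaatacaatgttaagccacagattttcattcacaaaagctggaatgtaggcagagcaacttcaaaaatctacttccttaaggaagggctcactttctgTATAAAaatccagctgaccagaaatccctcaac
Sprr1a: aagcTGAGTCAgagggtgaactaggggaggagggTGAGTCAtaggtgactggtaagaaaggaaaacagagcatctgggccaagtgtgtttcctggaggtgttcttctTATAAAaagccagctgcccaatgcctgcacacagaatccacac
Sprr1a held AP-1 letters that begin 146 and 116 bases before the start and a TATA box at 43, whereas Sprr3 held a TATA box at 33 and no AP-1 letters in its 250 bases.

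The remaining precursors changed less than 2-fold. Cnfn, cornifelin, fell by 0.66, and the plakin genes Ppl and Evpl, whose products lie under the envelope and tie it to desmosomes and keratin, fell by 0.26 and 0.21 (limma adjusted p = 1.20e-04, 0.00915 and 0.00479). Lor, loricrin, the main envelope protein of epidermis, averaged 7.86 in control and 7.39 in deficient colon (-0.47, limma adjusted p = 1.26e-04). Its other probe sets gave -0.78 and 0.03, the latter with overlapping groups. Ivl, involucrin, was at 6.54, 6.71 and 6.62 in control and at 6.82, 6.64 and 6.52 in deficient colon, with overlap and a difference of 0.04 (95% interval -0.16 to 0.23).

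**Figure D2:**
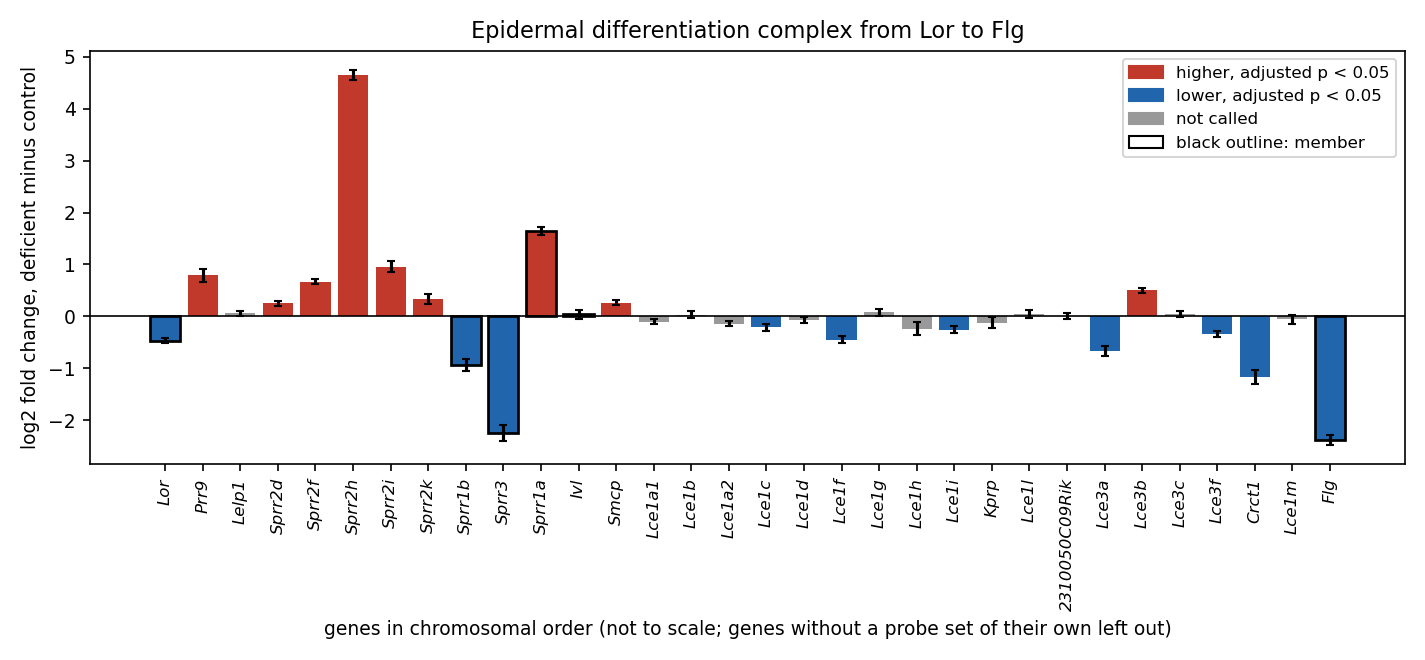
Log2 fold change (deficient minus control, error bars: standard error) of the 32 genes with a probe set of their own from Lor to Flg, in chromosomal order. The Sprr2 genes and Sprr1a rise, Sprr1b, Sprr3, Crct1 and Flg fall, and the Lce genes lie between -0.67 (Lce3a) and 0.50 (Lce3b).

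Lor, the Sprr genes, Ivl and Flg lie in the epidermal differentiation complex of chromosome 3. Of 47 protein-coding genes from Lor to Flg in RefSeq order, 32 had a probe set of their own, of which 9 rose (28.1%), 10 fell (31.2%) and 13 did not pass, shares near those of all genes (21.9% and 28.4%). Of 6 Sprr2 genes measured, 5 rose, where 21.9% of all genes did. The increases ran from Sprr2d (0.25) and Sprr2k (0.33) through Sprr2f (0.67) and Sprr2i (0.96) to Sprr2h. Sprr2h was at 6.77, 6.82 and 6.44 in control and at 11.33, 11.37 and 11.29 in deficient colon (4.66, limma adjusted p = 8.29e-08), by a probe set of the kind that can bind several transcripts. Sprr2j-ps did not pass (-0.09), and Sprr2j-ps, Sprr2f and Sprr2i were dim. Sprr2a1 shared 3 probe sets with near-identical Sprr2a genes. One fell from 12.01 to 11.54 (-0.47, limma adjusted p = 3.69e-04), and the others stayed at 14.43 and near 14.77, close to the top of the scale, with differences of 0.00 and -0.02. Of 15 late cornified envelope (Lce) genes, 5 fell, where 28.4% of all genes did. They ran from Lce1c (-0.21), Lce1i (-0.26), Lce3f (-0.34) and Lce1f (-0.45) to Lce3a (-0.67). Lce1c and Lce1f were dim, at the 2.7th and 32.6th percentiles of mean signal. Lce3b rose by 0.50 and the other 9 did not pass.

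Of 10 genes of secreted and cytosolic proteins of differentiating keratinocytes, 5 fell (50%), 3 rose (30%) and 2 did not pass. Among all genes 28.4% fell and 21.9% rose. All 5 decreases reached 2-fold. Krtdap, a secreted protein of differentiating keratinocytes, was at 8.60, 8.52 and 8.51 in control and at 5.59, 5.95 and 5.39 in deficient colon. It was 7.47-fold lower with no overlap (-2.90, standard error 0.129, limma adjusted p = 2.85e-06). Sbsn, suprabasin, fell from 8.19, 8.22 and 8.10 to 7.08, 7.06 and 7.08 (-1.10, standard error 0.0458, limma adjusted p = 2.07e-06), and its other probe sets fell by 1.16 and 0.20. The deficient arrays were again all lower. Dmkn, dermokine, was at 8.58, 8.42 and 8.65 in control and at 7.65, 7.56 and 7.42 in deficient colon, a decrease just past 2-fold (95% interval of the log2 fold change -1.18 to -0.82, standard error 0.0789, limma adjusted p = 4.26e-05).

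Sbsn, Dmkn and Krtdap are consecutive protein-coding genes on chromosome 7, and all fell. Their 150 bases before the start are shown for that reason, from chr7:30751321-30751470, chr7:30763606-30763755 and chr7:30787755-30787904 in that order (GRCm38.p6, plus strand), with the TATA box and AP-1 letters in capitals as above.
Sbsn: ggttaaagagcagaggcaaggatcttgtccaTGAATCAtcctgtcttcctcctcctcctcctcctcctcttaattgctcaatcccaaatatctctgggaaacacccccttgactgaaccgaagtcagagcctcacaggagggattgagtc
Dmkn: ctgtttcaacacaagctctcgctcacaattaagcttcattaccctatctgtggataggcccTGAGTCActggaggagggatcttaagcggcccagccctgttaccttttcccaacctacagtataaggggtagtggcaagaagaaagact
Krtdap: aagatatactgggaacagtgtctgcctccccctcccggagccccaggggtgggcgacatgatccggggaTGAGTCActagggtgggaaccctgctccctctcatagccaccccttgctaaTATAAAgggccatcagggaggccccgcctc
Each held AP-1 letters, beginning 119, 89 and 81 bases before the start. Krtdap also held a TATA box at 30.

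Promoters of 26 of the 42 genes were in the RefSeq table, and the letters were searched on both strands of the 250 bases before the start. TGANTCA was present in 9 of the 26 (34.6%), beside 6.87% of all 27018 promoters of that length. TATAAA was also present in 9 of the 26, beside 13% of all. Of the promoters of genes that fell, 6 of 12 held TGANTCA and 6 of 12 held TATAAA. Of those that rose, 1 and 2 of 6 held them, and of those that did not pass, 1 and 1 of 6. These splits were not tested. AACCGGTT, the letters bound by Grhl factors, were in none of the 26 and in 0.122% of all promoters. These matches describe the sequence and were not tested for binding.

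The calmodulin-like genes Calml3 and Calm4, which are adjacent on chromosome 13 and encode calcium-binding proteins of stratified epithelium, also fell together. Calml3 was at 7.58, 7.48 and 7.48 in control and at 6.01, 5.29 and 5.86 in deficient colon (-1.79, standard error 0.169, limma adjusted p = 1.03e-04). Calm4 was at 7.80, 7.41 and 7.80 and at 6.04, 6.08 and 6.43 (-1.49, standard error 0.138, limma adjusted p = 9.67e-05). Neither had overlapping groups.

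Sfn was the secreted or cytosolic gene with the largest increase. It encodes 14-3-3 sigma, an adaptor protein of epithelial cells, and was at 8.24, 8.28 and 8.34 in control and at 10.03, 9.92 and 9.96 in deficient colon (1.68, standard error 0.0480, limma adjusted p = 3.51e-07). The groups were separate. Ly6d and Ly6g6c, which encode membrane-anchored proteins of the Ly6 family, rose by 0.70 and 0.64 (limma adjusted p = 7.44e-05 and 5.66e-04). The other Ly6g6c probe sets rose by 1.93 and 0.91, so the size of its change depends on the probe set. The brightest is of the kind that can bind several transcripts, and the one that rose by 1.93 is not. Lgals7, galectin-7 (-0.09, 95% interval -0.22 to 0.04), and Stfa3, a stefin protease inhibitor (-0.14, -0.29 to 0.01), did not pass.

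**Figure D3:**
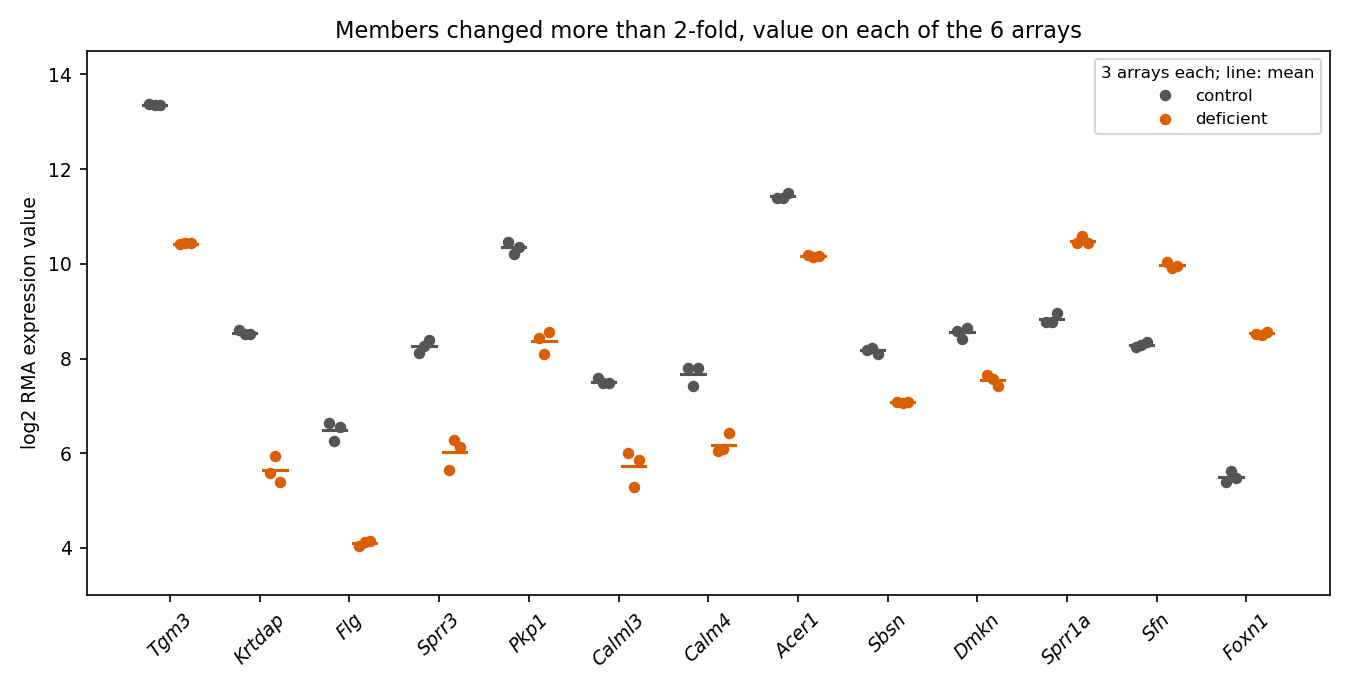
Log2 expression value of the 13 squamous genes changed more than 2-fold, on each of the 3 control (grey) and 3 deficient (orange) arrays, with group means as lines. No gene's groups overlap, which adds no support because the genes were chosen for their difference. The deficient arrays of Krtdap, Sprr3, Pkp1 and Calml3 spread more than those of Tgm3, Sbsn or Foxn1.

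Among desmosome genes the plakophilins Pkp1 and Pkp3 moved in opposite directions. Pkp1, the plakophilin of suprabasal stratified cells, was at 10.47, 10.21 and 10.36 in control and at 8.43, 8.09 and 8.57 in deficient colon, with no overlap (-1.98, standard error 0.124, limma adjusted p = 1.39e-05). Pkp3, which is found in simple and stratified epithelia, rose by 0.24 (limma adjusted p = 0.0033), and its second probe set differed by 0.13 without passing. The desmosomal cadherin genes Dsg1a (-0.21, 95% interval -0.42 to 0.00), Dsc1 (0.01, -0.16 to 0.18) and Dsc3 (0.01, -0.14 to 0.15) were dim and did not pass. A second Dsc1 probe set fell by 0.51, from 4.41 to 3.90.

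Of 5 lipid and protease genes, 2 fell (40%, against 28.4% of all genes), 1 rose (20%, against 21.9%) and 2 did not pass. Counts of so few genes are not read as a result about the role. Acer1, an alkaline ceramidase of differentiating keratinocytes, was at 11.39, 11.38 and 11.50 in control and at 10.18, 10.15 and 10.17 in deficient colon, every deficient array being lower (-1.26, standard error 0.0473, limma adjusted p = 1.35e-06). Its second probe set fell by 1.05. Acer1 too was bright, at the 91.5th percentile of mean signal, and which cells held its RNA was not tested. Asprv1, the protease that processes profilaggrin, fell by 0.42, and Klk7, a kallikrein of desquamation, rose by 0.24 (limma adjusted p = 0.00151 and 0.00483). The lipoxygenase genes Aloxe3 and Alox12b, adjacent genes whose products build the lipid barrier, did not pass (0.03, 95% interval -0.11 to 0.17, and 0.15, 0.01 to 0.28). Gsdma, the single gasdermin among the 38 genes, did not pass (-0.16, -0.33 to 0.01), while its second probe set fell by 0.57. Outside the 38, Gsdmd fell by 0.71 and Gsdma2 did not pass (0.06). Gsdmc, a gasdermin covered only together with Gsdmc2, gave a mean of 12.36 for control and 11.30 for deficient colon with the shared probe set (-1.06, limma adjusted p = 3.35e-06), and the probe set of Gsdmc2 alone fell by 1.41.

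Of 5 transcription factor genes, 2 rose (40%, against 21.9% of all genes), 1 fell (20%, against 28.4%) and 2 did not pass. These counts too are of few genes. Foxn1, a forkhead factor of thymic epithelium, hair follicle and suprabasal keratinocytes, was at 5.40, 5.63 and 5.48 in control and at 8.52, 8.50 and 8.57 in deficient colon (3.03, standard error 0.0648, limma adjusted p = 9.24e-08). The groups were more than 2 log2 units apart, and a second probe set rose by 0.66. Grhl3, a Grainyhead factor of barrier formation, rose by 0.42 at a dim signal (limma adjusted p = 0.00682). Ovol1, a zinc finger factor of epidermal differentiation, did not pass by its brightest probe set, although every deficient array was higher (0.17, 95% interval 0.03 to 0.32, limma adjusted p = 0.0576). Its second probe set did (0.14, limma adjusted p = 0.0424).

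Trp63, which encodes the p63 factor of basal stratified cells, was at 5.56, 5.37 and 5.33 in control and at 5.36, 5.43 and 5.47 in deficient colon, with overlap and a difference of 0.00 (95% interval -0.16 to 0.16). Its 4 probe sets were all dim, and one fell by 0.21 (limma adjusted p = 0.0495). Ehf, an Ets factor of simple and stratified epithelia, was at 12.53, 12.51 and 12.55 in control and at 12.40, 12.25 and 12.40 in deficient colon (-0.18, limma adjusted p = 0.0289). The Ehf difference was small, its 4 probe sets ran from -0.19 to 0.12, and without control replicate 1, 2 or 3 or deficient replicate 2 it no longer passed (limma adjusted p = 0.0682, 0.0579, 0.081 and 0.0566).

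**Figure D4:**
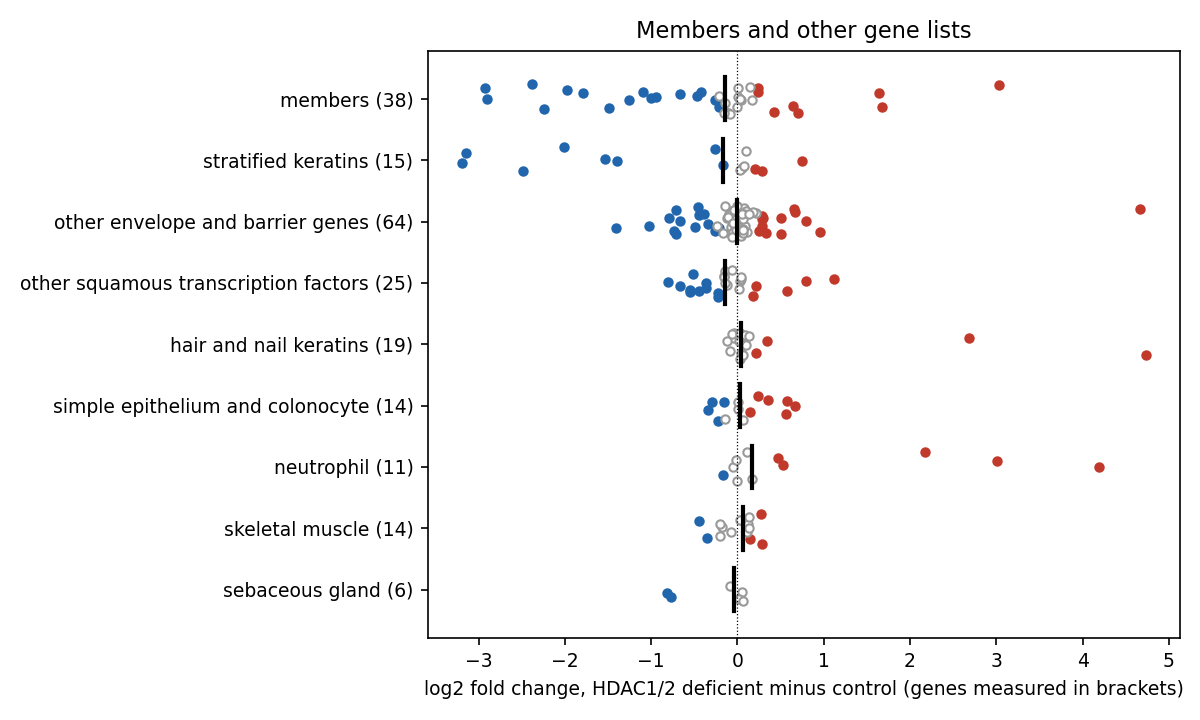
Log2 fold change (deficient minus control) of the 38 members beside other squamous genes and cell type markers, 1 point per gene. Red points rose and blue points fell (limma adjusted p under 0.05), open points did not pass, and black bars are medians. Stratified keratins reach -3.19, and hair and nail keratins reach 4.73.

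Of 15 keratins of stratified epithelium, 8 fell (53.3%, against 28.4% of all genes), 3 rose and 4 did not pass, with a median of -0.17. More than 2-fold, 6 fell (40%, against 1.82% of all genes), in a list chosen with earlier results of these data known. Krt6b (-3.19), Krt10 (-3.15), Krt6a (-2.48) and Krt4 (-2.01) fell the most. The log2 of the summed signal of all 15 was 11.93 to 12.06 on control and 10.97 to 11.02 on deficient arrays. The 3 that rose were Krt15 (0.75), Krt13 (0.29) and Krt78 (0.20). The part of stratified epithelial cells in the changes above was not tested.

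Of 19 hair and nail keratins, 4 rose (21.1%, near the 21.9% of all genes) and none fell, namely Krt84 (4.73), Krt36 (2.68), Krt35 (0.34) and Krt32 (0.22). The log2 of the summed signal of all 19 was 10.88 to 10.92 on control and 12.60 to 12.71 on deficient arrays. Of 11 neutrophil markers, 5 rose (45.5%, against 21.9% of all genes), namely S100a8 (4.19), Lcn2 (3.01), S100a9 (2.17), Ltf (0.53) and Csf3r (0.47). Elane fell (-0.17), and Ngp (-0.05), Camp (0.00), Mpo (-0.02), Mmp8 (0.11) and Cxcr2 (0.17) did not pass. The log2 of the summed signal of all 11 was 9.97 to 10.04 in control and 11.73 to 11.78 in deficient colon. Of 14 skeletal muscle markers, 21.4% rose, namely Acta1 (0.29), Tnni2 (0.27) and Mylpf (0.15). Ckm (-0.45) and Myh2 (-0.35) fell (14.3%, against 28.4% of all genes), and the summed signals were 10.84 to 10.94 and 10.83 to 10.92. Of 6 sebaceous gland genes, Far2 (-0.82) and Plin2 (-0.77) fell (33.3%, against 28.4% of all genes) and none rose. Their summed signals were 14.02 to 14.08 and 13.84 to 13.87. Mgst1 and Plin2 were by far the brightest, at 13.38 and 12.56 in control, so the sum mostly follows them. Scd3, Elovl3 and Mc5r averaged 5.63 to 6.39 in control and did not pass. The sum is thus not read as a measure of sebaceous gland. The part of these cell types in the results was not tested.

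Of 64 other envelope and barrier genes measured, 13 rose (20.3%), 14 fell (21.9%) and 37 did not pass, with a median of -0.01. Among all genes 21.9% rose and 28.4% fell, so neither share exceeded the background. Sprr2h (4.66), Gsdmc2 (-1.41), Serpinb2 (-1.03), a serine protease inhibitor of keratinocytes, and Sprr2i (0.96) changed the most. Serpinb2 and Sprr2i were dim, at the 11.6th and 38.8th percentiles of mean signal.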

How the data were processed

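The authors background-corrected and normalized Affymetrix mouse genome arrays by RMA in Flexarray and deposited 1 log2 value per probe set and array. Scanner intensities and detection calls were not used here, so dim genes could not be separated from background. Groups and replicate numbers came from the sample labels.

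Of 45101 probe sets, 64 controls were left out and 45037 entered a linear model of deficient minus control without covariates (lmFit and eBayes of limma 3.58.1, run under R 4.3.3), with Benjamini-Hochberg adjustment over all of them. The platform annotation gives 34945 probe sets 1 symbol, 932 several and 9160 none, and a gene was named only from a probe set with 1 symbol. Dim means at or below the 40th percentile of mean signal. Marker signals were summed on the linear scale, and promoters came from RefSeq. Members changed over 2-fold are given in full, with the 4 largest called changes of each other list, and genes of small counts outside that rule were named after their values were seen. The members and lists were chosen with earlier results of these data known. The fit was tested on simulated data.

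Alternatives were the t-test of the methods, renewed quantile normalization, a filter on dim probe sets, other eBayes settings, another choice of probe set, the replicate number as a block and leaving out each array. The arrays' number limits the precision.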

Additional observations from a re-analysis of the deposited data

How the results depend on the processing

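All 13 members changed over 2-fold kept their direction and passed the test under every alternative run, except that the filter on dim probe sets removed Flg. The members that rose numbered 7 to 9 and those that fell 15 to 18, of which 3 to 4 and 9 to 10 changed over 2-fold, Dmkn lying at that limit. Other squamous genes that fell numbered 32, and 20 with the methods' t-test after Benjamini-Hochberg adjustment. Where a gene's probe sets were averaged, Dsc1 changed from 0.01 to -0.25 (adjusted p = 0.0335 by limma). With the replicate block, 9 members rose and 17 fell, and 3 and 10 of them over 2-fold; the only member whose call changed was Ovol1 (limma adjusted p = 0.0389). Same-numbered arrays correlated at 0.0964, 0.0641 and -0.0258 in their deviations from the group means, so the numbers were not taken as pairs. Ehf also lost its call with the methods' t-test and with its probe sets averaged (limma adjusted p = 0.342), and Grhl3 and Ppl lost theirs with the methods' t-test after adjustment (0.0697 and 0.0501). Ovol1 also gained a call with renewed quantile normalization, the filter on dim probe sets, eBayes with trend and robust settings and averaged probe sets (limma adjusted p = 0.0256, 0.0318, 0.0255 and 0.0113), and Gsdma with averaged probe sets (-0.37, limma adjusted p = 0.0015). Calls were further gained by Tgm1 without control replicate 1, Dsg1a without control replicate 3, Gsdma without deficient replicate 2 and Alox12b without deficient replicate 1 (limma adjusted p = 0.0492, 0.0135, 0.00933 and 0.0211). The causes were not tested. With 3 arrays a group, p-values measure only the spread between these arrays, which may hold pooled RNA, and sex-linked RNA, neutrophil markers and genotype cannot be told apart in this design.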

Other observations

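Of 25 other transcription factors of squamous epithelium measured, 5 rose (20%), 10 fell (40%) and 10 did not pass (limma, adjusted p under 0.05). Among all genes 21.9% rose and 28.4% fell. The median of the 25 was -0.14. Prdm1, which encodes the repressor Blimp1, was at 7.23, 7.13 and 6.92 in control and at 8.33, 8.14 and 8.16 in deficient colon (1.12). Grhl1, a relative of Grhl3, rose by 0.79, while Zfp750, an epidermal differentiation factor, fell by 0.81 and Ovol2, the relative of Ovol1, fell by 0.67. Gata3 (0.58), Cebpa (0.21) and Cebpb (0.18) were the others that rose, and Klf5 (-0.55), Hes1 (-0.55), Elf3 (-0.52), Sox2 (-0.44), Grhl2 (-0.37), Bnc1 (-0.36), Klf4 (-0.22) and Pitx1 (-0.22) were the others that fell. Sox2, Bnc1 and Gata3 were dim. Klf4, Klf5, Elf3, Hes1 and Grhl2 were bright, at the 84.2nd to 99.1st percentiles of mean signal. Which cells held the RNA of these factors was not tested. No array of one group overlapped the other for Prdm1, Grhl1, Zfp750 or Ovol2.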
